A study of Mus musculus with 11 samples.

Results

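The globin genes were followed in normal mouse liver at 2 fetal and 2 postnatal stages, named E14, E18, P5 and P56 for the embryonic or postnatal day. The globin probes were chosen by name, as every probe on the array whose gene name began with Hba- or Hbb-. This gave 10 probes of 5 genes among 41174 probes and 27962 gene names, and all 10 passed the filter on dim probes. There were 3 arrays at E14, 3 at E18, 2 at P5 (replicates 2 and 3) and 3 at P56, which the labels call biological replicates. Each array compared a liver sample, labelled with the red dye Cy5, with the same commercial RNA of normal adult mouse liver, labelled with the green dye Cy3. No sample carried a transgene or a treatment according to the labels, and the methods name C57BL/6 for the embryos from which fetal liver cells were isolated, without tying a strain to each array. The source of every sample is given as mouse liver, while the cell type is given as hepatoblasts at E14, immature hepatocytes at E18 and hepatocytes at P5 and P56. Whether whole livers or isolated cells were used for a given fetal array was not settled by the labels or the methods.

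Haemoglobin carries oxygen in red cells and is built from alpha-type and beta-type globin chains. In the mouse embryo the first red cells arise in the yolk sac and make the embryonic chains zeta (Hba-x), epsilon-y (Hbb-y) and beta-h1 (Hbb-bh1). The fetal liver then becomes the main site of red cell formation, and its red cells make the adult chains alpha (Hba-a1) and beta (Hbb-b1). This exchange of chains is known as haemoglobin switching, and blood formation leaves the liver for the bone marrow around and after birth. In samples of bulk RNA, fewer red cells and less globin RNA per red cell cannot be told apart.

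The probe sequences are shown first because the match of a probe to one gene or to several sets what each value can mean. Each is written 5′ to 3′. The embryonic chains had their own probes. That of Hbb-y (A_51_P350058) lay at chr7:99909287-99909346 and that of Hba-x (A_51_P204053) at chr11:32229678-32229737. The pair for Hbb-bh1 lay at chr7:99898179-99898238 (A_51_P179672) and chr7:99898199-99898258 (A_52_P305876). Positions are those of the array files on the mm7 build, with the chromosome 7 genes on the minus strand and the chromosome 11 genes on the plus strand. The capitals mark the 40 bases that the Hbb-bh1 probes share, so that they are not independent measurements.
Hbb-y A_51_P350058: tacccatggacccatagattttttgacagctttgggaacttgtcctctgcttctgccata
Hba-x A_51_P204053: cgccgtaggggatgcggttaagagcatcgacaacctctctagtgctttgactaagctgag
Hbb-bh1 A_51_P179672: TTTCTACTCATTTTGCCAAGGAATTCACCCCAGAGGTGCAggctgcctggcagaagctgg
Hbb-bh1 A_52_P305876: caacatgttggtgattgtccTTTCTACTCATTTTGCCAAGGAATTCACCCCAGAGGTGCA

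The adult chains had 2 probes for Hba-a1 and 4 for Hbb-b1. The Hba-a1 probes lay at chr11:32235937-32235996 (A_52_P208681) and chr11:32235785-32235966 (A_52_P278538). The second spanned 182 bases of the genome with 60 bases of probe. Over the 30 bases that these probes share they differed at 3, which are in capitals below, and only A_52_P278538 was tied by the array file to the RefSeq transcript of Hba-a1.
Hba-a1 A_52_P208681: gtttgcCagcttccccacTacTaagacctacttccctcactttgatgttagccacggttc
Hba-a1 A_52_P278538: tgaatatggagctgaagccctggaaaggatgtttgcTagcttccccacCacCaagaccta

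Of the Hbb-b1 probes, A_51_P374476 (chr7:99864305-99864363) and A_52_P260346 (chr7:99864335-99864394) share the 29 bases in capitals, and A_51_P374468 lay at chr7:99864621-99864680. The array file tied A_51_P374468 and A_52_P213909 (chr7:99863416-99863476) to transcripts of 2 genes, which RefSeq names Hbb-bt and Hbb-b2 on GRCm38.p6. These probes cannot separate the adult beta chains, and the Hbb-b1 of the array is read here as adult beta globin.
Hbb-b1 A_51_P374468: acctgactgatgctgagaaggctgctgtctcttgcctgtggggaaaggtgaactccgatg
Hbb-b1 A_51_P374476: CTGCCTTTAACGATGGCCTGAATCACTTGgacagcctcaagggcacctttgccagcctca
Hbb-b1 A_52_P260346: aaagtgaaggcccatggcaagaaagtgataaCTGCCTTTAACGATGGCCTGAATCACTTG

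Between 16790 and 25718 spots per array were well above background in Cy5, and replicate 2 of P56 had the fewest. The scanner stops at an intensity of 65502, and 13 of the 41174 probes were saturated in Cy5 on all 8 arrays of E14, E18 and P5. Of these 13, 6 were the adult globin probes, so that their level before P56 is known only as a lower limit. The 4 embryonic globin probes were not saturated on any array. The arrays fell into 4 scans. The first held the E14 arrays with E18 replicate 1, the second held E18 replicates 2 and 3, the third held P5 replicate 2, and the fourth held P5 replicate 3 with the P56 arrays. Differences in log2(Cy5/Cy3) between stages were tested with limma over 23512 probes with Benjamini-Hochberg adjustment, and a probe was called at an adjusted p under 0.05. Changes are also given for the Cy5 channel alone, because the Cy3 channel moved with stage at the globin probes.

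The embryonic globins were high at E14 and far lower at E18. All 4 of their probes fell between these stages in log2(Cy5/Cy3), and all 4 also fell in the Cy5 channel alone, beside 27.1% of all probes called lower there. Over the 10 globin probes 6 were called, 4 lower and 2 higher, beside 44.5% of all probes called (22.2% lower and 22.3% higher). The 2 higher calls were adult probes at the scanner limit.

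Hbb-y, the epsilon-type chain of embryonic haemoglobin, had Cy5 intensities of 46775, 43198 and 62628 at E14. In E14 replicate 3, 43.3% of the pixels of its spot were saturated, so that its level there is a lower limit. At E18 the intensities were 5062, 2422 and 2509. Every E18 array lay far below every E14 array, and replicate 1 was the highest of the E18 arrays. The log2(Cy5/Cy3) of Hbb-y was 6.66 ± 0.24 (SD, n = 3) at E14 and 4.09 ± 0.89 (SD, n = 3) at E18. The difference of -2.58 ± 0.38 (SE; limma adjusted p = 0.000187) is 5.97-fold. With E14 replicate 3 partly at the scanner limit, the folds of Hbb-y against E14 given here may understate the fall. In Cy5 alone the difference was -4.22 ± 0.30 (SE; limma adjusted p = 1.17e-06), or 18.7-fold.

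Hbb-bh1, the other embryonic beta-type chain, fell further in Cy5. Its probe A_51_P179672 gave 21822, 39487 and 34230 at E14, and 1904, 128 and 121 at E18. Its overlapping probe A_52_P305876 gave 29481, 47173 and 39627 at E14, and 2159, 116 and 110 at E18. On both probes every E14 array lay above every E18 array, and E18 replicate 1 lay between E14 and the other E18 arrays. The Cy3 signal of both probes was not well above background on E18 replicates 2 and 3. In log2(Cy5/Cy3) the difference was -3.0 ± 0.58 for A_51_P179672 (limma adjusted p = 0.00117) and -2.35 ± 0.49 for A_52_P305876 (limma adjusted p = 0.00220). In Cy5 alone these were -6.71 ± 0.73 and -6.98 ± 0.78. From Agilent's processed signals A_52_P305876 differed by -0.21 (limma adjusted p = 0.671) and was not called.

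Hba-x, the embryonic alpha-type chain, gave 7605, 8770 and 13343 at E14. At E18 it gave 919, 66.9 and 78.9, all well above background. Its Cy3 signal was not well above background on E18 replicates 2 and 3. Its log2(Cy5/Cy3) went from 3.81 ± 0.10 (SD, n = 3) to 1.36 ± 1.38 (SD, n = 3), a difference of -2.45 ± 0.47 (SE; limma adjusted p = 0.00117). The difference in Cy5 alone was -5.85 ± 0.62 (SE; limma adjusted p = 2.02e-05). From processed signals the log2(Cy5/Cy3) difference was -1.22 and not called (limma adjusted p = 0.0687).

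**Figure D1:**
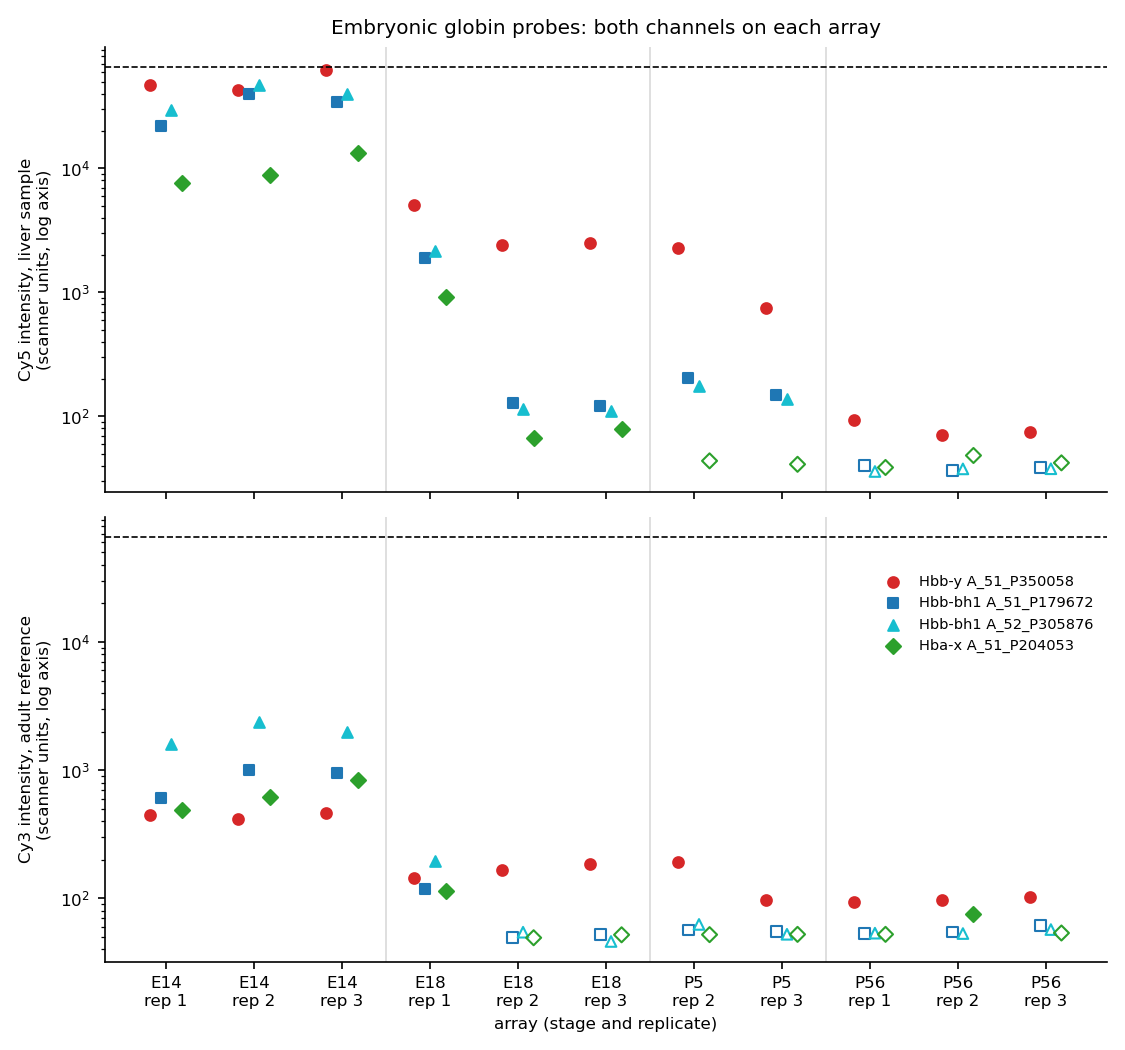
Cy5 intensity of the liver sample (top) and Cy3 intensity of the adult liver reference (bottom) on each of the 11 arrays for the 4 embryonic globin probes, on log axes in scanner units. Filled symbols are well above background, open symbols are not, and the dashed line is the scanner limit of 65502. Cy5 fell from E14 to E18 on all 4 probes, E18 replicate 1 lay above the other E18 arrays, and Cy3 was highest at E14.

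The E18 arrays differed from each other at these probes. Replicate 1, which was scanned with the E14 arrays, had 14.8 and 18.6 times the Cy5 intensity of the higher of the other 2 E18 arrays for the Hbb-bh1 probes. For Hba-x the ratio was 11.6, and for Hbb-y it was 2.02. The lowest E14 array was in turn 8.28 to 13.7 times brighter than E18 replicate 1 over the 4 probes. Other red cell genes did not set this array apart in the same way, since the median log2(Cy5/Cy3) of 19 red cell membrane and maturation genes was 2.88 on it and 2.75 and 2.65 on the other E18 arrays. Whether scan or animal accounts for the difference was not tested.

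The fall held with and without that array. Within the scan that E18 replicate 1 shares with the E14 arrays, it lay below the E14 mean in log2(Cy5/Cy3) on all 4 probes. The differences were -1.55 for Hbb-y, -1.13 and -0.72 for Hbb-bh1 and -0.86 for Hba-x. With scan as a fixed block the fitted differences were the same, since no other scan holds both stages. They rest on 1 E18 array. In Cy5 alone the same within-scan differences were -3.48, -4.32, -4.42 and -3.87. Without E18 replicate 1 the log2(Cy5/Cy3) differences were -3.09, -3.94, -3.16 and -3.25. In Cy5 alone without it they were -4.59, -7.90, -8.27 and -6.83.

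The embryonic globins differed in how far their signal lasted after E18. Hbb-y stayed well above background on every array through P56, Hbb-bh1 through P5 and Hba-x through E18. From E18 to P5, 2 of the 10 globin probes were called lower beside 5.74% of all probes called lower (11.9% in either direction). Both were saturated adult probes, and none of the 4 embryonic probes was called.

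At P5 the Cy5 intensities of Hbb-y were 2299 and 749. Both were below every E18 array, the first only just. The difference was -1.33 ± 0.43 (SE; limma adjusted p = 0.0648) in log2(Cy5/Cy3) and was not called. In Cy5 alone it was -1.33 ± 0.33 (SE; limma adjusted p = 0.0288), the 1 embryonic call there, beside 4.87% of all probes called lower. Without P5 replicate 2 the log2(Cy5/Cy3) difference was -1.95 and called (limma adjusted p = 0.0120), and without P5 replicate 3 it was -0.71.

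Hbb-bh1 was at 204 and 150 at P5 on A_51_P179672 and at 176 and 138 on A_52_P305876. These values were below E18 replicate 1 and above the other 2 E18 arrays. The differences from E18 were -0.87 and -0.82 and were not called. Without E18 replicate 1 they were 0.066 and -0.011. Hba-x was at 43.8 and 41.1 at P5, not well above background on either array, and its difference from E18, -1.43 in log2(Cy5/Cy3), did not pass the test (limma adjusted p = 0.102). Without E18 replicate 1 it was called lower at -0.63 (limma adjusted p = 0.00663). In Cy5 alone without that array the difference was -0.54 and was not called (limma adjusted p = 0.170).

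Between P5 and P56 Hbb-y fell again, to Cy5 intensities of 93.2, 70.6 and 75.4. These were well above background on all 3 arrays. The difference was -2.25 ± 0.43 (SE; limma adjusted p = 0.00126) in log2(Cy5/Cy3) and -2.67 ± 0.33 in Cy5 alone, where 23.3% of all probes were called lower. Within the scan shared by P5 replicate 3 and the P56 arrays it was -1.62. The Cy3 signal of the adult reference at this probe, 93.8 to 102 on the P56 arrays, was also well above background. The mean log2(Cy5/Cy3) of Hbb-y at P56 was 0.51 ± 0.08 (SD, n = 3).

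Hbb-bh1 was at 36.6 to 40.2 on A_51_P179672 and at 36.0 to 37.9 on A_52_P305876 at P56, not well above background on any array. Such a level is known only as an upper limit, and a bound on the fold was taken from Cy5 after loess and Aquantile normalization, with a dim spot set to no less than the lowest signal well above background on its array. That scale differs from Cy5 alone, so a bound can exceed the fold fitted there. On it Hbb-bh1 was at least 2.65-fold and at least 2.29-fold lower than at P5, and neither probe was called (limma adjusted p = 0.127 and 0.153). With scan as a fixed block the log2(Cy5/Cy3) differences were -0.79 and -0.70, which rest on P5 replicate 3 alone. Without E18 replicate 1 both probes were called, at the same differences as with it, -1.30 and -1.04. That array is in neither stage compared and enters the test through the spread shared by all stages. Hba-x was below background at both stages, so no fold is given. In all, 7 of the 10 globin probes were called from P5 to P56, all lower, beside 22.6% of all probes called lower (42.1% in either direction). These were Hbb-y and the 6 adult probes.

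Over the whole course all 10 globin probes were lower at P56 than at E14, beside 35.2% of all probes called lower (68.7% in either direction). Hbb-y differed by -6.16 ± 0.38 in log2(Cy5/Cy3), or 71.3-fold (limma adjusted p = 3.67e-08), and by -8.22 ± 0.30 in Cy5 alone, or 298-fold. In Cy5 alone 37.3% of all probes were called lower. Hbb-bh1 was at least 475-fold lower on A_51_P179672 and at least 583-fold lower on A_52_P305876, with log2(Cy5/Cy3) differences of -5.17 and -4.21 (limma adjusted p = 6.34e-06 and 1.01e-05). Hba-x was at least 128-fold lower (limma adjusted p = 1.84e-05). The folds fitted in Cy5 alone for the Hbb-bh1 probes were smaller than these bounds, at 467 and 541.

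**Figure D2:**
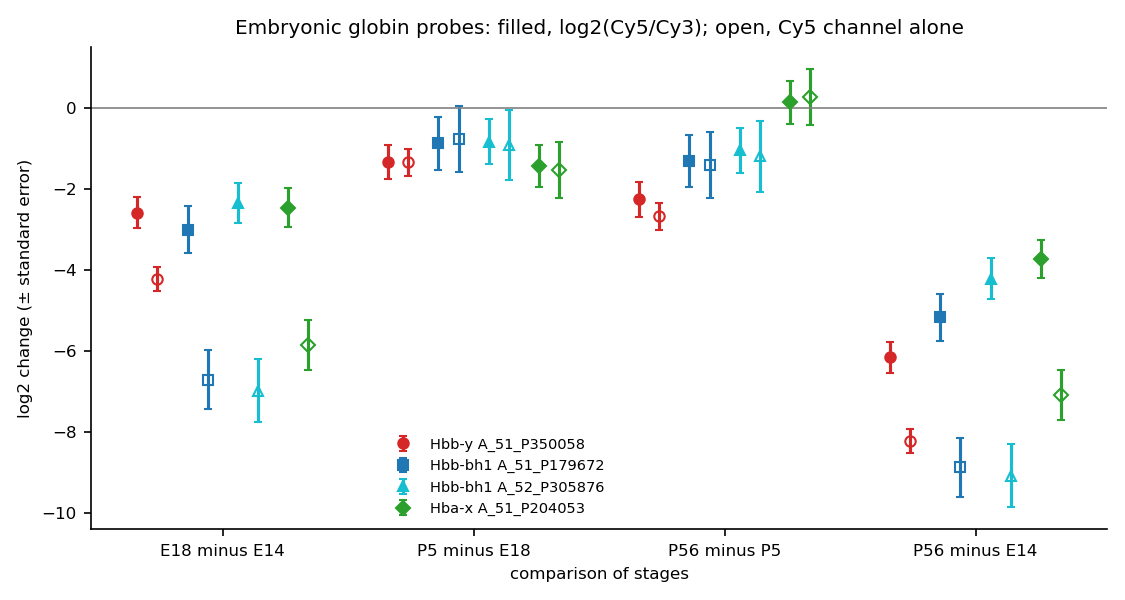
Change between stages (log2 units, y axis) of the 4 embryonic globin probes in 4 comparisons of stages (x axis), with bars of ± 1 standard error from limma. Filled symbols are differences in log2(Cy5/Cy3) and open symbols are differences in the Cy5 channel alone. The open symbols lie well below the filled ones in the comparisons with E14 and close to them in the others.

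Whether Hbb-y and Hbb-bh1 fell by the same amount depended on the channel. In Cy5 alone the log2 difference of Hbb-y over Hbb-bh1 (A_52_P305876) moved from 0.63, -0.14 and 0.65 on the E14 arrays to 1.32, 4.07 and 4.04 on the E18 arrays. At P5 it was 3.22 and 2.21. In log2(Cy5/Cy3) it was 2.49, 2.35 and 2.75 at E14, 1.71, 2.71 and 2.48 at E18, and 2.08 and 1.51 at P5. Cy3 of A_52_P305876 was not well above background on E18 replicates 2 and 3 or on the P5 arrays. On the log ratio E14 overlapped E18 and E18 overlapped P5, while all P5 values lay below all E14 values. In Cy5 alone E14 and E18 did not overlap. These differences are a description with no test, and they say nothing of the level of one gene against another.

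The adult globins were at the limit of the scanner through P5. All 6 probes were saturated on every array of E14, E18 and P5, with Cy5 intensities of 61989 to 65535. No fold between these 3 stages can be given. The calls that the log ratio made there, A_52_P208681 of Hba-a1 (0.71) and A_52_P213909 of Hbb-b1 (0.70) as higher at E18 and A_52_P213909 (-0.97) and A_52_P260346 (-0.90) of Hbb-b1 as lower at P5, compare spots whose Cy5 is saturated at both stages, so they carry no information on the Cy5 level. The Cy5 differences at these spots, -0.014, 0.039, -0.023 and -0.195, are fixed near 0 by the limit. One spot, A_52_P278538 on E14 replicate 1, was left out as an outlier.

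By P56 every adult probe was off the limit and still well above background. Hba-a1, the adult alpha chain, gave 9444, 1890 and 4120 on A_52_P208681 and 9753, 2097 and 4847 on A_52_P278538. In these intensities, before normalization, its highest P56 array was 5.00 and 4.65 times its lowest, with P56 replicate 2 the lowest on both probes. That array also had the fewest spots well above background. In normalized log2(Cy5/Cy3) it was at -1.21 and -1.07, beside -0.006 and 0.23 on P56 replicate 1, the highest. Compared with P5, Hba-a1 was at least 9.65-fold lower on A_52_P208681 (limma adjusted p = 2.62e-06) and at least 9.01-fold lower on A_52_P278538 (limma adjusted p = 6.00e-05). Compared with E14 the bounds were 13.5-fold and 11.6-fold, above the folds of 11.97 and 10.44 fitted in Cy5 alone.

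Hbb-b1, the adult beta chain, gave bounds that varied with the probe. The probe A_51_P374468 gave 5483, 2330 and 4234 at P56 and was at least 9.75-fold lower than at P5 (limma adjusted p = 1.49e-07) and at least 14.3-fold lower than at E14, beside 13.5-fold fitted in Cy5 alone. The probe A_51_P374476 gave 48599, 31219 and 39815, not far below the limit, and its bound against P5 was 1.29-fold, beside 1.27-fold fitted in Cy5 alone. The probes A_52_P213909 (28395, 11848 and 18978) and A_52_P260346 (24013, 18621 and 22662) were at least 2.53-fold and at least 2.17-fold lower than at P5. All 4 probes were called lower at P56 than at P5. A bound near 1 comes from a probe that was bright at P56 and says nothing against a larger fall.

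**Figure D3:**
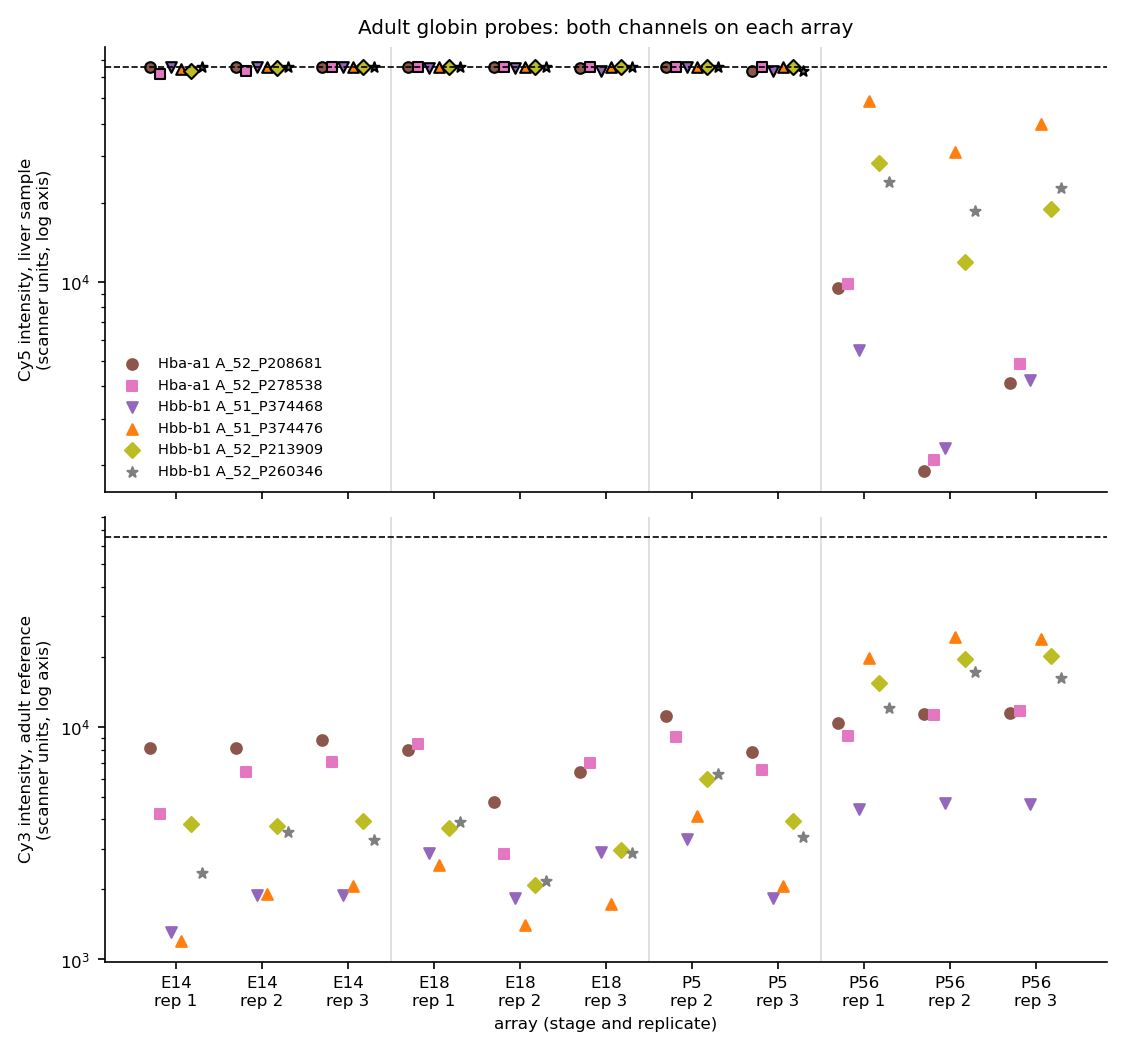
Cy5 intensity of the liver sample (top) and Cy3 intensity of the adult liver reference (bottom) on each of the 11 arrays for the 6 adult globin probes, on log axes in scanner units. Symbols with a black edge are saturated and the dashed line is the scanner limit of 65502. All Cy5 spots of E14, E18 and P5 are saturated and none of P56 is, while Cy3 of the Hbb-b1 probes is highest at P56.

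The Cy3 channel held the same adult liver RNA on every array, but its signal at the globin probes moved with stage. For Hbb-y it was 419 to 460 at E14 and 93.8 to 102 at P56. For Hbb-bh1 it was 608 to 1010 (A_51_P179672) and 1600 to 2353 (A_52_P305876) at E14, and it was not well above background on any P5 or P56 array. For Hba-x it was 490 to 842 at E14 and 52.5 to 75.1 at P56. At E18, Cy3 of both Hbb-bh1 probes and of Hba-x was well above background on replicate 1 only. The log2(Cy5/Cy3) of these probes on E18 replicates 2 and 3 thus rests on a Cy3 signal near background. The adult beta probes moved the other way, with Cy3 of A_51_P374476 at 1195 to 2066 at E14 and 19751 to 24427 at P56. Of 16374 probes with Cy3 not above background on any P56 array, 5 had Cy5 over 5000 on all E14 arrays without saturation, and all 5 had Cy3 above background on all E14 arrays. These were the 2 Hbb-bh1 probes and probes of Rhd, Dlk1 and Hemgn. Of the other 16369 such probes 65 had Cy3 above background on all E14 arrays. The part of this channel in the log ratios was not tested, and no dye swap was made.

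Globin-like probes outside the rule also fell after P5. LOC383229, which RefSeq lists as the alpha globin pseudogene Hba-ps4, was measured without saturation, and its probe (A_52_P33382, chr17:24470047-24470211 on mm7) matched Hba-a1 probe A_52_P278538 at all but 10 of 55 bases. Its Cy5 intensities were 4619, 5233 and 5957 at E14, 4619, 7329 and 8686 at E18, 5948 and 1387 at P5, and 98.4, 53.7 and 80.2 at P56. E14 and E18 did not differ by the test (0.08 ± 0.27, limma adjusted p = 0.842). It was lower at P5 than at E18 by -1.23 ± 0.30 (limma adjusted p = 0.0201) and lower at P56 than at P5 by -3.37 ± 0.30 (limma adjusted p = 4.19e-06). Alpha globin RNA could bind this probe, and the share of such binding was not tested. Hbq1, a theta-type globin of the alpha cluster, ran from 326 to 402 at E14, 229 to 237 at E18 and 188 to 258 at P5, and was not well above background at P56. It was lower at E18 than at E14 (-0.51 ± 0.19, limma adjusted p = 0.0450) and at least 2.98-fold lower at P56 than at P5.

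Globins of other cells were measured with probes of their own. Myoglobin (Mb), the oxygen store of muscle, was not well above background on any array. Cytoglobin (Cygb), which is found in fibroblast-like cells, was higher at P56 than at E14 by 0.51 ± 0.14 (limma adjusted p = 0.00667). Neuroglobin (Ngb) was higher at E18 than at E14 by 0.97 ± 0.13 (limma adjusted p = 8.71e-05), with Cy5 intensities of 154 to 172 at E14 and 289 to 473 at E18.

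Regulators of globin switching are given as a list of known factors, most of which were lower at P56 than at P5. Of 17 such genes tested, 2 were higher and 6 lower at E18 than at E14, with a median difference of -0.22 beside -0.013 over all 16695 genes, of which 24.4% were called higher and 22.7% lower. The lower genes included Lin28b (-1.07) and Igf2bp1 (-0.94), RNA-binding proteins of fetal development, and Lmo2 (-0.67), a partner of blood transcription factors. Nr2c1 (0.35) and Nr2c2 (0.48), orphan nuclear receptors that bind embryonic globin promoters, were higher. Bcl11a, a repressor of embryonic and fetal globin genes, was not called (-0.38 ± 0.17, limma adjusted p = 0.0956), with Cy5 intensities of 840 to 1167 at E14 and 478 to 567 at E18. Sox6 (0.44) and Zbtb7a (-0.23), further repressors of these genes, and Myb (0.19), a factor of dividing blood progenitors, were also not called. Klf1, the activator of adult beta globin, was lower by -0.44 ± 0.12 (limma adjusted p = 0.0105).

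From E18 to P5 7 of the 17 regulators were called lower and none higher, beside 6.16% of all genes called lower and 7.13% called higher, and the median was -0.37 beside 0.00029. Myb (-1.28), Bcl11a (-0.69) and Klf1 (-0.57) were among the 7. From P5 to P56 13 were lower and none higher, beside 24.6% and 20.8% of all genes, and the median was -1.30 beside -0.020. Tal1, a master factor of blood formation, had the largest log2 difference (-4.04, at least 25.6-fold), followed by Nfe2 (-3.34), which binds the beta globin locus control region, and Klf1 (-2.64). Myb (-2.35, at least 6.17-fold), Sox6 (-1.88), Bcl11a (-1.31, at least 3.21-fold) and Zbtb7a (-0.38) also fell. At P56 6 of the 17 regulators were not well above background on any array.

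Genes of globin assembly, haem synthesis and iron supply serve the making of haemoglobin in red cells. Of 15 tested, none was higher and 7 were lower at E18 than at E14, with a median of -0.34, beside 24.4% and 22.7% of all genes called higher and lower, led by the haem enzymes Urod (-0.85), Uros (-0.72) and Alad (-0.60). One, Slc25a37, was lower at P5 than at E18 and none was higher, beside 6.16% and 7.13% of all genes. Ahsp, the chaperone that binds free alpha chains, had Cy5 intensities of 34125 to 54991 at E14, 28092 to 33747 at E18 and 29339 to 44012 at P5. It was not called between these stages. At P56 it was at 41.6 to 56.0 and well above background on 1 of 3 arrays. The fitted difference from P5 was -4.61 ± 0.13 (limma adjusted p = 3.11e-10), against a level mostly at background. In this last step 12 of the 15 genes were lower and none higher, beside 24.6% and 20.8% of all genes, with a median of -1.48, including the mitochondrial iron carrier Slc25a37 (-4.76) and the transferrin receptor Tfrc (-2.83).

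Red cell membrane and maturation genes follow the red cells by other RNAs than globin. Of 19 tested, 2 were higher (Slc4a1, the band 3 anion exchanger, at 0.44, and Bpgm, which makes the haemoglobin effector bisphosphoglycerate, at 0.45) and 2 lower (Icam4 at -0.64 and the erythropoietin receptor Epor at -0.55) at E18 than at E14, with a median of 0.017. Over all genes 24.4% were called higher and 22.7% lower in that step. At P5, Car1 was higher than at E18 (1.01) and Epor lower (-0.50), beside 7.13% and 6.16% of all genes called higher and lower. From P5 to P56 all 19 were lower, beside 24.6% of all genes, with a median of -2.18, led by Rhd (-4.66, at least 138-fold), Slc4a1 (-4.09, well above background on 2 of 3 P56 arrays) and the membrane anchor Ank1 (-3.51, at least 27.4-fold). At P56 11 of the 19 were not well above background on any array. Between E14 and E18, the log2(Cy5/Cy3) differences of the embryonic globin probes were -2.35 to -3.0, beside the median of 0.017 for these red cell genes, and the difference between them was not tested.

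Genes that clear free haemoglobin and haem are active in hepatocytes and macrophages. Of 5 tested, 4 were higher at E18 than at E14 (haptoglobin Hp at 2.18, the haemopexin receptor Lrp1 at 1.67, haem oxygenase Hmox1 at 0.83 and the haemoglobin scavenger receptor Cd163 at 0.82) and Blvrb was lower (-0.48), beside 24.4% and 22.7% of all genes called higher and lower. From P5 to P56 4 were lower, beside 24.6% of all genes, including Hmox1 (-2.48) and Blvrb (-0.52). Hp was saturated on both P5 arrays and was at least 1.64-fold lower at P56 (limma adjusted p = 0.00866).

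**Figure D4:**
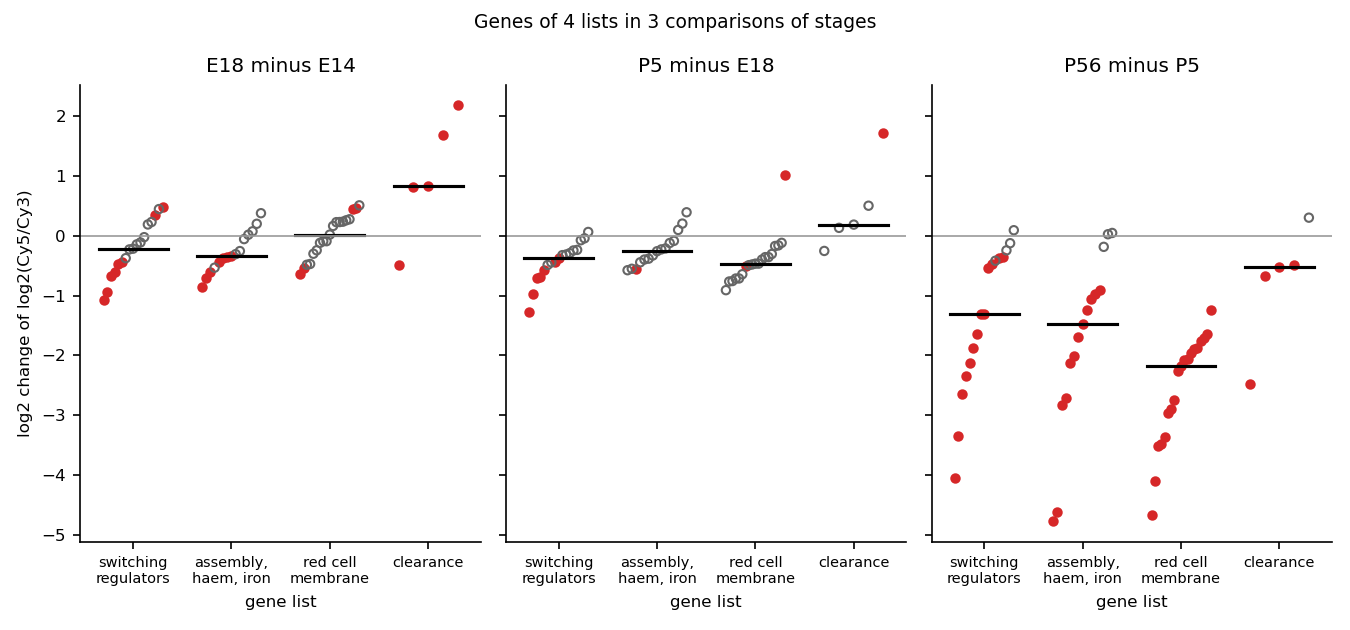
Difference in log2(Cy5/Cy3) (y axis, log2 units) of each tested gene of 4 lists (x axis) in 3 comparisons of stages. Filled points passed the test, open points did not, and the line is the list's median. From E14 to E18 the medians lie between -0.34 and 0.83, and from P5 to P56 all 19 red cell membrane genes lie below 0.

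Markers of other cells moved over the same stages. The 9 hepatocyte markers and the 9 neutrophil and myeloid markers tested were all higher at E18 than at E14, with medians of 2.62 and 3.16, as were all 9 macrophage markers (1.29), beside 24.4% of all genes. Also higher were 4 of 6 hepatoblast (median 0.64), 4 of 7 endothelial (0.795) and 5 of 7 lymphocyte markers (0.493), with none lower. Of 4 megakaryocyte and platelet markers 1 was lower and none higher, beside 22.7% of all genes called lower. From P5 to P56, where the red cell and adult globin probes were lower, all 9 neutrophil and myeloid markers (median -3.97), all 6 hepatoblast markers (-3.51), 6 of 9 macrophage markers (-0.68) and 6 of 7 endothelial markers (-0.78) were also called lower, beside 24.6% of all genes. Of the 9 hepatocyte markers 3 were higher and 2 lower in that step, beside 20.8% and 24.6% of all genes. Beside the same shares, 1 of the 7 lymphocyte markers was higher and 2 were lower (median 0.049). Of the 4 megakaryocyte and platelet markers 3 were lower and none higher (median -1.03). The 6 hepatoblast markers had a median log2(Cy5/Cy3) of 3.94 to 4.05 on the E14 arrays and 4.50 to 4.68 on the E18 arrays. On the E14 arrays the red cell membrane list had 2.97 to 3.16 and the hepatocyte list -2.93 to -2.78. On the P56 arrays the red cell list stood at -0.02 to 0.01. The part of the mix of cells in the globin differences was not tested.

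The promoters of 4 of the globin genes, of embryonic and adult chains, are shown over the 100 bases before the start of each gene in RefSeq (GRCm38.p6). Whether the embryonic and adult genes moved differently before P56 cannot be told, since the adult probes were saturated there. The windows are chr7:103853208-103853307 for Hbb-y and chr7:103813924-103814023 for Hbb-bt, both on the minus strand, and chr11:32276500-32276599 for Hba-x and chr11:32283572-32283671 for Hba-a1, both on the plus strand. Capitals mark 4 motifs. CACCC is known as a binding site of Klf1 and was searched on both strands. CCAAT is a common promoter element, also searched on both strands. GATA is bound by Gata1 and was searched on both strands too. ATAAA is part of the TATA box and was searched on the strand of the gene. Adjoining matches of one motif in Hbb-bt run together in the print.
Hbb-y: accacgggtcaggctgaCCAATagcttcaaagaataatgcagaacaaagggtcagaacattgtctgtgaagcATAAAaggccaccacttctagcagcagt
Hba-x: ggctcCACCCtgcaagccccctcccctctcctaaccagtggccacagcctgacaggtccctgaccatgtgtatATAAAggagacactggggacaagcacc
Hbb-bt: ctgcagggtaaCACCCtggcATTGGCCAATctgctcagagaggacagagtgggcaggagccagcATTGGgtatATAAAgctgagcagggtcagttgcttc
Hba-a1: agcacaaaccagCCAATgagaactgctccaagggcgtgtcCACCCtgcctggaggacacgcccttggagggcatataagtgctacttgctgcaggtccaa

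CACCC was found in the windows of Hba-x, Hbb-bt and Hba-a1 and not in that of Hbb-y, and 27.2% of 32851 promoters hold it in a window of this length. CCAAT was found in those of Hbb-y, Hba-a1 and, at 3 places, Hbb-bt, beside 18.9% of promoters. ATAAA was found in those of Hbb-y, Hba-x and Hbb-bt, beside 11%. GATA was found in none of the 4 windows, beside 25.0%. These are matches of letters in short windows and show no binding.

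As a description over the 11 arrays, the genes outside the globins whose log2(Cy5/Cy3) was most like that of Hbb-y among 16427 genes were Ranbp5 (Pearson r = 0.996), 1110034A24Rik, a probe named NAP060490-1, Prpf31 and Ruvbl2. Among those most like Hbb-b1 (A_52_P213909) were Igf2 (r = 0.994), Afp, H19 and Gpbp1 (r = 0.986). The arrays share a reference and the stages, and the Hbb-b1 values before P56 are saturated in Cy5. Afp was also near the scanner limit before P56, at Cy5 intensities of 64692 to 65535, as was Igf2 at P5 (63360 to 65535).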

How the data were processed

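Cy5 and Cy3 spot intensities were deposited as scanner output of Agilent Feature Extraction 9.5.1.1, not normalized, for 11 arrays (43379 spots each, of which 1639 are controls). The authors amplified the RNA, labelled liver samples with Cy5 and adult liver with Cy3, and used limma. They also deposited a table of log2 gene values for 28050 genes, used here as an alternative only. Its normalization is not given in the sources used here.

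Background was corrected by normexp (offset 50) and arrays were normalized by loess within each array in limma 3.58.1 (R 4.3.3). Outlier spots were left out, spots of a probe averaged, and a probe was kept when its Cy5 signal stood well above background throughout 1 stage or more, with at most 1 array missing per stage. limma was fitted on all 4 stages with Benjamini-Hochberg adjustment over 23512 probes, with a threshold of 0.05. Gene lists used the brightest probe of each gene (16695 genes). Cy5 alone was quantile normalized between arrays. The number of arrays limits the precision, most of all at P5.

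The globin genes and gene lists were chosen with earlier results of these data known. All globin probes were named; from each list the up to 3 called genes with the largest difference in E18 minus E14 and in P56 minus P5 were named, with Bcl11a, Klf1, Sox6, Zbtb7a, Myb, Ahsp and the globins outside red cells, and the 5 genes most like Hbb-y and Hbb-b1, of which 1 is not reported here. Other genes in the account of the Cy3 channel and of globin-like probes were named after their values were seen. In simulated data for E18 minus E14 (23512 probes), the test recovered 83.5% of probes given a log2 change of 1 and 99.5% of those given 2. Each share is over 200 changed probes as a whole. The embryonic globin probes had SDs of 0.89 to 1.62 in log2(Cy5/Cy3) at E18, and recovery at such a spread is not given. Promoters for 4 of the 5 genes came from RefSeq (GRCm38.p6).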

Additional observations from a re-analysis of the deposited data

Results flagged for a closer look

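Signals in the reference channel or at probes outside the naming rule exceeded their P56 level at 6 probes. In the Cy3 channel of the adult reference, the lowest E14 intensity was 419 for Hbb-y, beside a highest P56 value of 102. It was 608 for Hbb-bh1 on A_51_P179672, beside 61.6, and 1600 on A_52_P305876, beside 57.2. For Hba-x it was 490, beside 75.1. In the Cy5 channel, 2 globin-like probes outside the naming rule were above their P56 level on all 8 earlier arrays. The lowest earlier intensity was 188 for Hbq1, beside a highest P56 value of 46.4, and 1387 for LOC383229, beside 98.4.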

How the results depend on the processing

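The lower level of all 4 never-saturated probes at E18 than at E14 and at P56 than at E14 kept its direction under every alternative run, and 5 to 6 of 10 globin probes in E18 minus E14, 1 to 3 in P5 minus E18, 7 to 9 in P56 minus P5 and 10 in P56 minus E14 were called with each array left out in turn. Of the never-saturated probes these ranges were 4, 0 to 1, 1 to 3 and 4. For E18 minus E14 (6 called), the methods' t-test with Benjamini-Hochberg adjustment called 3, as did probes well above background on all arrays (7 members tested). Of the 4 never-saturated probes processed signals called 2, the adjusted t-test 1 and the stricter filter 1 of 1. With the deposited gene values, 1 of the 5 globin genes was called, beside 5 by the brightest probe. These 5 include Hba-a1 and Hbb-b1, whose brightest probes were saturated in Cy5 at both stages. For P5 minus E18 (2 called), Cy5 alone, Cy5 alone without E18 replicate 1, no filter, processed signals, scan as a random block and the unadjusted t-test called 1, and median centring, saturated spots left out and the adjusted t-test called 0. Leaving out E14 replicate 3, E18 replicate 2 or 3, P5 replicate 2 or P56 replicate 3 also gave 1. Of the never-saturated probes (0 called), 1 was called in Cy5 alone with or without E18 replicate 1, with offset 16, with processed signals, and without E18 replicate 1 or P5 replicate 2. For P56 minus P5 (7 called), leaving out saturated spots gave 1 of 4 tested and the adjusted t-test 0, with 10 called unadjusted. Of the never-saturated probes (1 called), no background correction, offset 16, a fit of those 2 stages, processed signals, scan as a fixed block, and the log ratio or Cy5 alone without E18 replicate 1 gave 3, the adjusted t-test 0 and the unadjusted 4. For P56 minus E14 (10 called), leaving out saturated spots gave 4 of 4 tested, and the stricter filter 1 of 1 never-saturated probe. Over all probes, P5 minus E18 had 2809 calls, beside 1847 with processed signals, 41 and 4476 by the adjusted and unadjusted t-test, 1713 and 1565 without E18 replicate 2 or 3, and 4982 and 1169 without P5 replicate 2 or 3. P56 minus P5 had 9890, beside 6460 in a fit of those 2 stages, 2758 with scan as a fixed block, 127 by the adjusted t-test and 5938 without P5 replicate 2. The causes were not tested.

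These log2 differences changed sign. Hba-a1 A_52_P208681 in E18 minus E14 was -0.014 in Cy5 alone and -0.018 without E18 replicate 1 as well. Hbb-b1 A_51_P374476 in E18 minus E14 was -0.11 with median centring, -0.21 with scan as a fixed block, and -0.032 to 0.34 with single arrays left out, below 0 without E14 replicate 3 or E18 replicate 2. Hbb-b1 A_51_P374468 in P5 minus E18 was 0.12 with median centring and -0.58 to 0.21 with single arrays left out, above 0 without P5 replicate 2. Hbb-bh1 in P5 minus E18 was 0.43 and 0.38 (A_51_P179672 and A_52_P305876) in Cy5 alone without E18 replicate 1, 0.0023 and 0.31 with processed signals, and -1.38 to 0.066 for the first with single arrays left out, above 0 without E18 replicate 1.

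The replicate numbers of the labels were not used to pair the arrays in the main fit. Same-numbered arrays correlated at -0.325 to 0.197 (15 pairs) and others at -0.471 to 0.471 (30 pairs). Against any other array the P5 arrays gave values of nearly equal size and opposite sign. The pairs are thus not independent and cannot settle whether the numbers pair the arrays. With the replicate block, 6, 1, 7 and 10 globin probes were called in the order of stages above, and Hba-x in P56 minus P5 was -0.13. Scan as a fixed block could not be fitted for P5 minus E18 or P56 minus E14, where a random block called 1 and 10. In the comparisons it could fit, it set E18 replicate 1 alone against E14, or P5 replicate 3 alone against P56. The random block, Cy5 alone without E18 replicate 1 and the count of never-saturated probes were chosen after seeing the data. A difference between embryonic and adult probes was not run, because the adult probes were saturated. Saturation limits the adult globins before P56, and signal over background limits Hbb-bh1 and Hba-x at P56.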
